A study of Mus musculus with 4 samples.

Results

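The 34 genes described here encode enzymes, receptors, transcription factors and carriers of cholesterol synthesis and sterol regulation. They were taken by gene symbol from the 23282 entries of the count tables, and all 34 were listed. Endothelial cells (ECs), the cells lining blood vessels, of the dura mater, the outermost meningeal membrane, had been set against ECs of the brain parenchyma. Both groups came from C57BL/6J mice at 8 weeks of age with no treatment, transgene or deletion named, and each tissue had 2 libraries. The study's methods name antibodies to CD31 (endothelial), CD45 (leukocyte) and TER-119 (erythroid) for the flow cytometry sort, without spelling out the gate, and an enrichment on magnetic beads before it for the brain alone, so tissue and that extra step cannot be told apart. The libraries were made from total RNA by QuantSeq, a method that sequences near the 3′ end of each polyadenylated transcript. The labels do not say that the 2 libraries of a tissue came from separate mice, so the p-values below measure only the spread between these libraries, which may be technical.

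Cells make cholesterol from acetyl-CoA through the mevalonate pathway, whose isoprenoid products also feed protein prenylation, dolichol and ubiquinone. Squalene is then closed into a sterol ring and trimmed to cholesterol. When sterols run low in the endoplasmic reticulum, SCAP carries the SREBP transcription factors to the Golgi for cleavage, and the freed factors switch on genes of synthesis and uptake. INSIG proteins hold SCAP back when sterols are plentiful, while the liver X receptors (LXRs) sense oxysterols and switch on genes that lower uptake and raise efflux. In the brain most cholesterol is made locally, because lipoproteins in plasma hardly cross the barrier formed by brain ECs.

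Total counts ran from 13518973 to 16096203 per library, and between 9350 and 11803 symbols had a count. The summed level of 11 pan-endothelial markers was 10008 and 12497 CPM (counts scaled by library size) in brain ECs and 8765 and 11226 CPM in dura mater ECs. The summed level of 7 brain barrier markers was 25823 and 23670 CPM in brain ECs against 3159 and 3296 CPM in dura mater ECs. Markers of fenestrated or peripheral vessels ran the other way, at 0.276 and 1.44 CPM against 4715 and 3895 CPM. Both lists therefore followed the tissue labels. Of the peripheral markers, the paper itself reports Aqp1 and Fabp4 as enriched in dura mater ECs, so these are not an independent check. Replicates differed widely, with a common biological coefficient of variation of 1.39 and a median standard error (SE) of 2.10 for the log2 fold change over all genes tested.

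Promoter sequence is shown for 4 members, because SREBPs act on DNA and these 4 differ in how their counts fell between the tissues. Mylip was called higher in dura mater ECs, while Srebf2 and Cyp51 had lower counts there in both libraries without being called. Hmgcs1 is the only one of the 28 members with a matched promoter that held the exact sterol regulatory element searched for. Each line gives 150 bases read 5′ to 3′ on the gene's strand (RefSeq, GRCm38.p6), ending before the earliest start in RefSeq or GENCODE, which for Srebf2 and Cyp51 is the GENCODE start, 88 and 49 bases before the RefSeq one. Capitals mark TCACNCCAC, the core of a sterol regulatory element, CCAAT, the box bound by NF-Y, and GGGCGG, the core of an Sp1 site, and the last 2 read ATTGG and CCGCCC when they lie on the other strand.
Mylip, chr13:45389592-45389741, plus strand: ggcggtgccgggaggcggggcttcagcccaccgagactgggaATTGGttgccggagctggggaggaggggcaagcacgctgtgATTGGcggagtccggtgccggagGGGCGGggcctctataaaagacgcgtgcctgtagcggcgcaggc
Srebf2, chr15:82147031-82147180, plus strand: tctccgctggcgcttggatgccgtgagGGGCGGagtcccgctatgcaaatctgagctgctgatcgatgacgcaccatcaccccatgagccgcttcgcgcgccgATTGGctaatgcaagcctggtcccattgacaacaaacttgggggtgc
Cyp51, chr5:4104747-4104896, minus strand: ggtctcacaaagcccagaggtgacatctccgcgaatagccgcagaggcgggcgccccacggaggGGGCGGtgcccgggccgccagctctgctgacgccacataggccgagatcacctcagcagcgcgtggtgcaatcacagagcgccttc
Hmgcs1, chr13:119690201-119690350, plus strand: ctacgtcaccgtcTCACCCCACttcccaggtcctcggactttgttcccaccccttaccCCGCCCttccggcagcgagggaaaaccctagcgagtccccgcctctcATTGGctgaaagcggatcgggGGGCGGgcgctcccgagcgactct

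In these stretches Mylip held 2 CCAAT boxes and 1 GGGCGG, Srebf2 held 1 of each, Cyp51 held 1 GGGCGG, and Hmgcs1 held 1 TCACNCCAC, 1 CCAAT and 2 GGGCGG. Nearer to the RefSeq start and outside the stretch shown, Cyp51 also held a CCAAT 29 bases before it, and Srebf2 held further GGGCGG. Over the window from 250 bases before to 50 bases after the RefSeq start, promoters were matched for 28 of the 34 members. No promoter was matched for Fdps, Fdft1, Sqle, Scarb1, Npc1 and Stard4. The CCAAT box was present in 23 of the 28 on either strand (82.1%), against 41.1% of 27025 symbols with a promoter of the same length. GGGCGG was likewise present in 23 of the 28 (82.1%), against 38.2% of those symbols. A symbol with several promoters was counted if any of them held the motif. The symbols were taken whatever their expression, and whether the shares are particular to these members among expressed genes was not tested. TCACNCCAC was found in Hmgcs1 only (3.57% of the 28), against 1.44% of symbols. Only exact matches were searched for, so a variant of the element would not be found. None of the 3 motifs holds another within its letters, and a match describes the sequence and says nothing of binding.

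The members together held 0.201% and 0.254% of all counts in the brain replicates, against 0.183% and 0.245% for the dura mater. The mean ± SD over n = 2 was 0.228% ± 0.0373 for the brain and 0.214% ± 0.0441 for the dura mater, so the tissues differed by less than their replicates did. The 19 synthesis enzymes alone held 0.0375% and 0.0473% of counts for the brain against 0.0257% and 0.0349% in dura mater ECs. Their ranges did not overlap, although the gap between the nearest libraries was smaller than the gap between replicates of either tissue.

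Across the whole table edgeR tested 9347 genes and called 57 of them at an adjusted p under 0.05 (0.610%), 40 with the higher level in dura mater ECs (0.428%) and 17 with the lower (0.182%). Of the 34 members, 25 passed the filter on low counts, and 1 was called, Mylip, higher in dura mater ECs. No member was called lower. At an unadjusted p under 0.05 there was 1 member higher in dura mater ECs, Mylip, against 7.04% of all genes tested, and 1 lower, Lrp8, against 2.97%. The groups did not overlap for 8 of the 25 members, against 43.1% of all genes tested. Among these 8, Cyp51, Msmo1, Insig2, Srebf2, Lrp8 and Npc1 were lower in both dura mater libraries, against 16.9% of all genes tested, and Fdft1 and Mylip were higher, against 26.2%. The log2 fold change lay below 0 for 18 of the 25 and above 0 for 7, with a median of -0.65, whereas over all genes tested the median was -0.01. Of all genes tested, 50.2% lay below 0. The members not tested were Idi1, Sqle, Lss, Tm7sf2, Hsd17b7, Sc5d, Vldlr, Nr1h3 and Soat1. Without the filter, the median was -0.20 over all 34 members and 0.27 over the 13660 symbols with a count in any library.

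**Figure D1:**
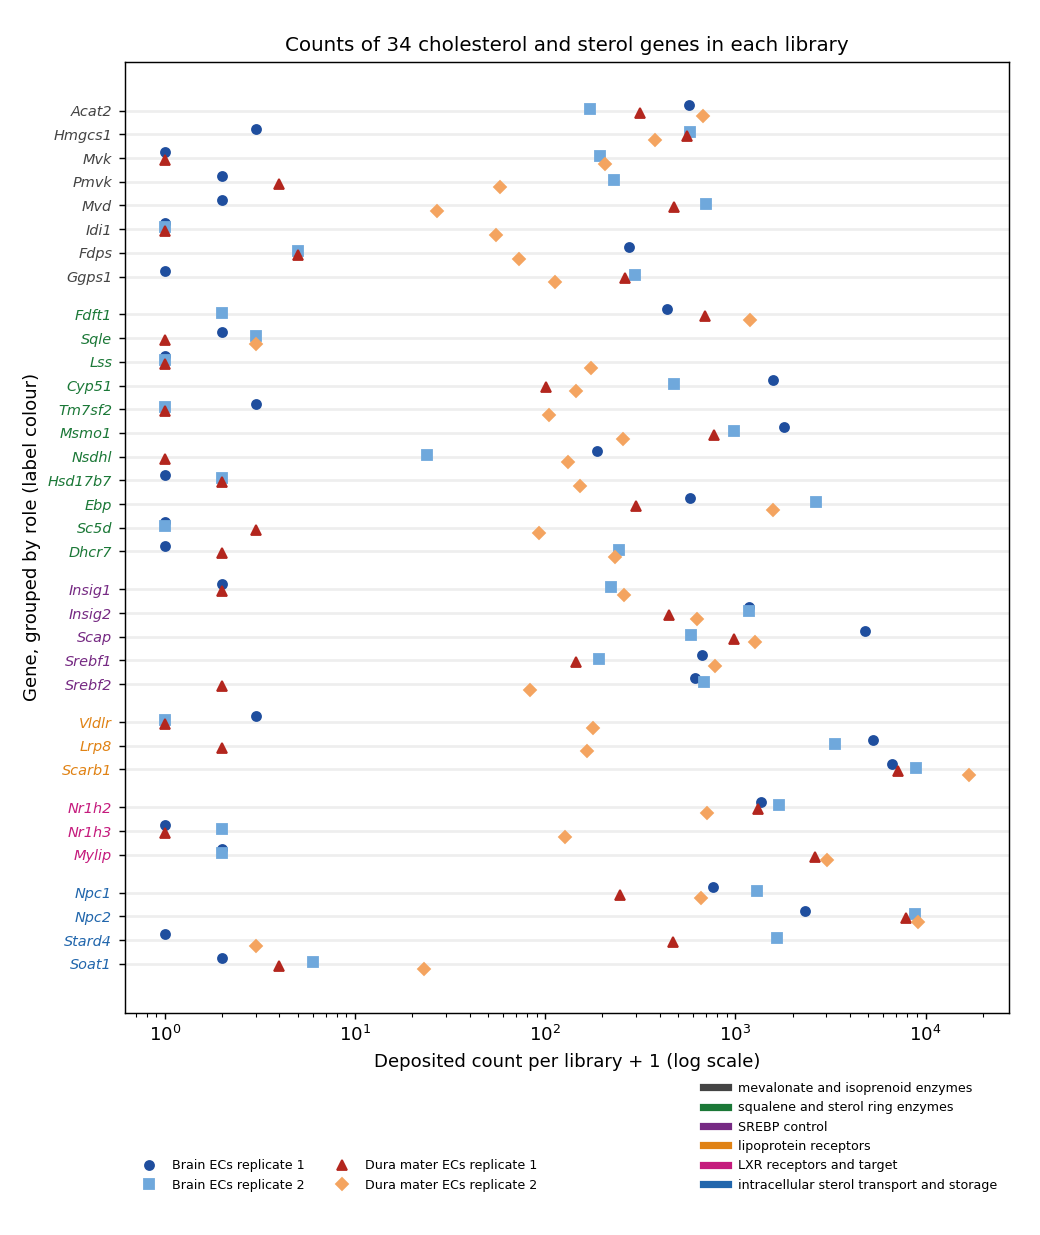
Deposited count plus 1 (log scale) of each of the 34 members in each of the 4 libraries, grouped by role through the colour of the gene label. Mylip sits at 1 count in both brain EC libraries and at 2627 and 3035 in dura mater ECs, whereas many enzymes are split between replicates of the same tissue.

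**Figure D2:**
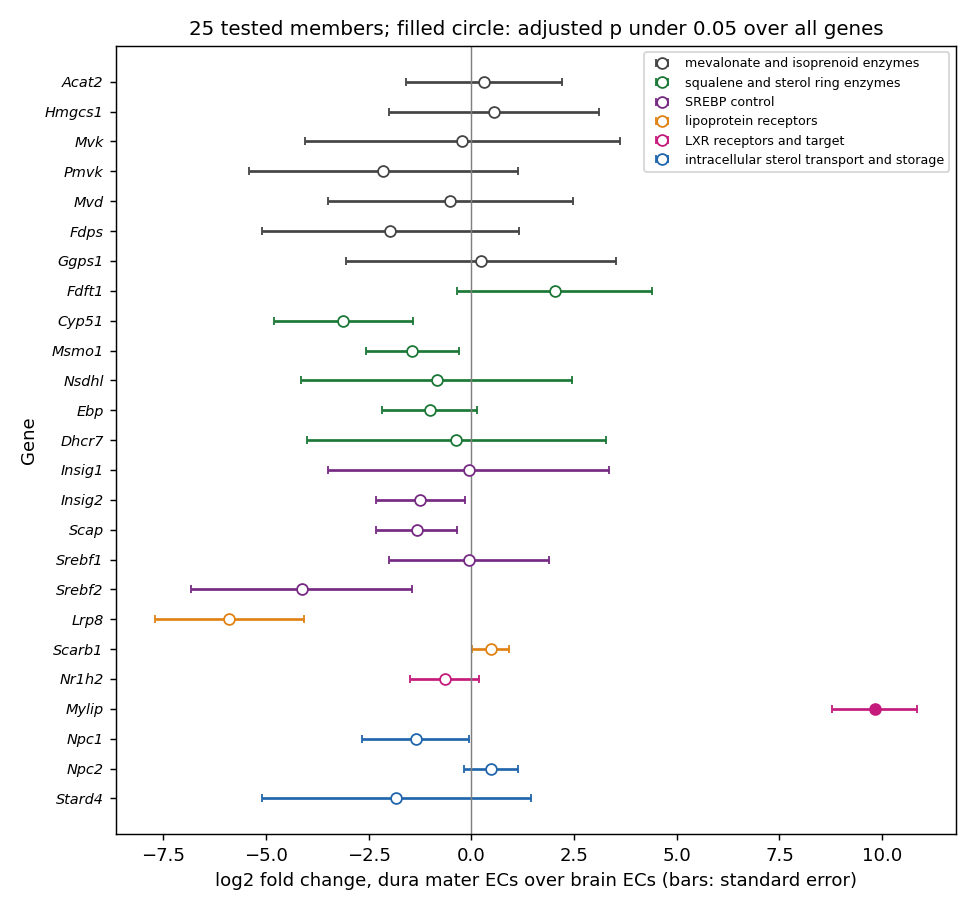
Log2 fold change, dura mater ECs over brain ECs, of the 25 tested members, with bars of 1 SE and a filled circle for an adjusted p under 0.05 over all genes. Mylip at 9.82 is the only filled circle, and Lrp8 at -5.89 lies farthest to the other side.

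Mylip encodes an E3 ubiquitin ligase, switched on by LXRs, that marks lipoprotein receptors for degradation. It was counted 1 and 1 times in the brain EC libraries and 2627 and 3035 times in the dura mater EC libraries. Both dura mater libraries stood far above both brain libraries and close to each other. The level was 0.0723 ± 0.00467 CPM for the brain and 190.9 ± 7.06 CPM for the dura mater (mean ± SD, n = 2 each). The log2 fold change was 9.82 (SE 1.04), with an edgeR adjusted p of 0.0248. From the summed counts the ratio was 2639, with an exact 95% interval of 730 to 21800 that covers counting error only. The call was lost with limma-voom (adjusted p = 0.0699) and without dura mater replicate 1 (edgeR adjusted p = 0.0743), and without any other single library it held. Mylip lies at chr13:45389742-45412022 on the plus strand (GENCODE M21, GRCm38), and its exons overlap those of no other gene in that annotation.

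Neither LXR gene was called. Nr1h2, which encodes LXRβ, was counted 1366 and 1700 times in the brain replicates and 1315 and 712 times in those of the dura mater. These ranges overlapped once scaled, at 111 ± 24.2 CPM against 70.8 ± 38.5 CPM, and the log2 fold change was -0.65 (SE 0.85, edgeR adjusted p = 1.00). Nr1h3, which encodes LXRα, had 0, 1, 0 and 126 counts, in the order brain replicates 1 and 2 and dura mater replicates 1 and 2. Nearly all its counts came from dura mater replicate 2, and it was not tested.

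Lrp8 encodes a receptor of the low-density lipoprotein receptor family that also binds reelin. It had 1 and 164 counts in the 2 dura mater libraries, where the brain libraries had 5285 and 3345. Both brain libraries stood well above both dura mater libraries, while the dura mater replicates themselves were far apart. The level was 308.7 ± 79.0 CPM for the brain and 5.06 ± 7.05 CPM for the dura mater (mean ± SD, n = 2 each). The log2 fold change was -5.89 (SE 1.82, edgeR unadjusted p = 0.0167, adjusted p = 0.389), so Lrp8 was not called. The ratio of summed counts was 56.1, brain over dura mater, with an exact 95% counting interval of 48.1 to 65.8. With all 4 libraries kept, the adjusted p ran from 1.7e-08 (edgeR, no filter on low counts) to 0.408 (edgeR, library size only). It passed the threshold with DESeq2, the newer edgeR dispersion estimate, no filter and the replicate block. Calls over all genes then rose from 57 to 810, 305, 326 and 224, in that order. With 1 library left out the log2 fold change ran from -10.46 to -5.06, and 1 tissue was then a lone library. The -10.46 came without dura mater replicate 2, where the dura mater was a lone library with 1 count. DESeq2, which called 9.02% of the genes it gave an adjusted p, called 2 members, Lrp8 and Mylip. Lrp8 lies at chr4:107802261-107876840 on the plus strand, free of overlapping exons.

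Vldlr, which encodes the closest relative of the Lrp8 product, had 2, 0, 0 and 178 counts in brain replicates 1 and 2 and dura mater replicates 1 and 2. Again a single library held nearly all counts, and no test was made. Scarb1, which encodes the receptor SR-BI for high-density lipoprotein, had 7188 and 16853 counts in the 2 dura mater libraries, where the brain libraries had 6691 and 8897. Its level of 567 ± 149 CPM overlapped the 784 ± 351 CPM of dura mater ECs, and the log2 fold change was 0.47 (SE 0.44, edgeR adjusted p = 0.952).

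**Figure D3:**
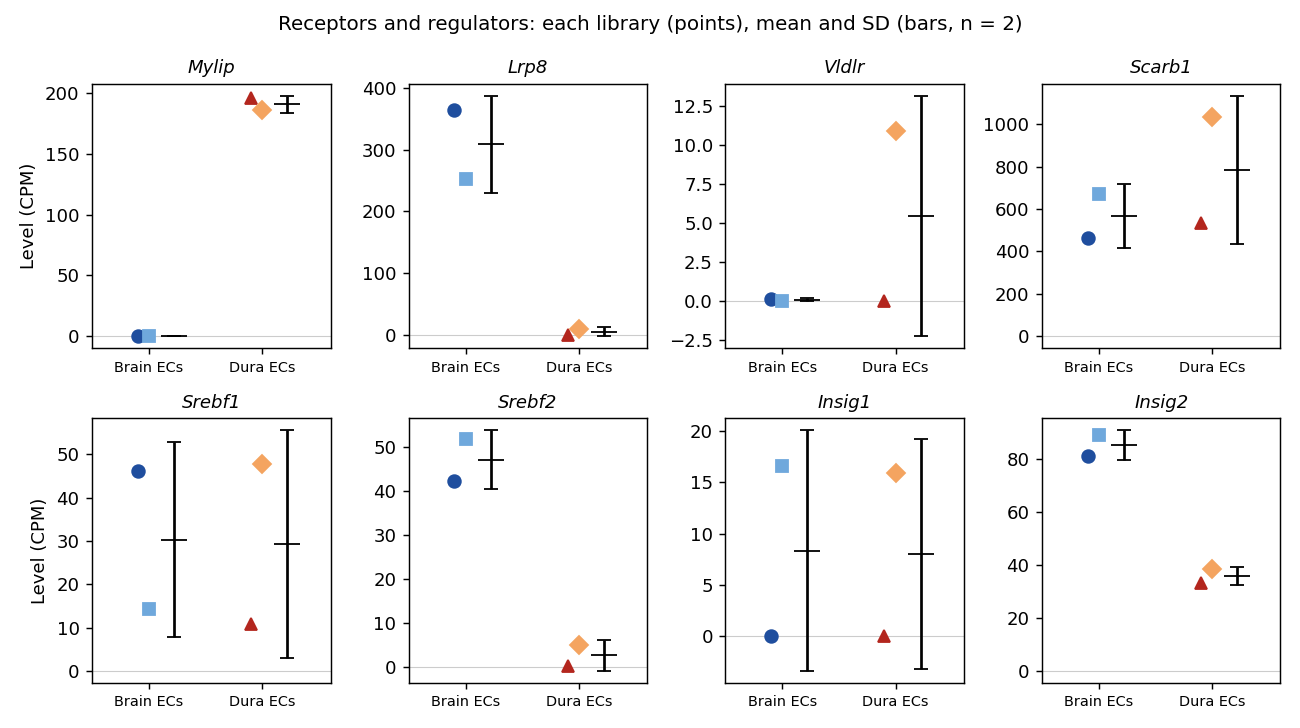
Level in CPM of 8 receptor and regulator genes in each library (circle and square, brain EC replicates 1 and 2; triangle and diamond, dura mater EC replicates 1 and 2), with the mean and SD of each tissue (n = 2). Mylip, Lrp8, Srebf2 and Insig2 separate the tissues, whereas for Vldlr, Srebf1 and Insig1 the replicates of a tissue lie farther apart than the tissue means or a single library holds the counts.

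All 5 genes of SREBP control had a log2 fold change below 0, with a median of -1.25, and none was called. The groups did not overlap for 2 of the 5, Srebf2 and Insig2, against 43.1% of all genes tested. Both were lower in dura mater ECs, against 16.9% of all genes tested. Their paralogues Srebf1 and Insig1 differed widely between the replicates of each tissue, and a difference within a pair was not tested.

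Srebf2, which encodes SREBP2, the factor that mainly drives cholesterol synthesis genes, reached 612 and 684 counts in the brain replicates, while the dura mater replicates gave 1 and 82. The brain replicates lay close together and above both dura mater libraries. Its level was 47.0 ± 6.71 CPM for the brain and 2.55 ± 3.50 CPM for the dura mater (mean ± SD, n = 2 each). The log2 fold change was -4.13 (SE 2.69, edgeR adjusted p = 0.744), and the brain over dura mater ratio of summed counts was 16.7 with an exact 95% counting interval of 13.4 to 21.2. Without dura mater replicate 2 the log2 fold change was -7.75 (edgeR adjusted p = 0.799). The gene lies at chr15:82147181-82205379 on the plus strand, free of overlapping exons. Srebf1 encodes SREBP1, whose main targets are genes of fatty acid synthesis. It was counted 669 and 190 times in the brain replicates and 144 and 781 times in those of the dura mater, so each tissue had a high and a low library. Levels were 30.3 ± 22.5 and 29.3 ± 26.2 CPM, and the log2 fold change was -0.05 (SE 1.95, edgeR adjusted p = 1.00), a value whose sign turned with upper-quartile scaling, with the stricter filter and without brain replicate 1 or dura mater replicate 1.

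Insig2 and Insig1 encode the proteins that retain SCAP in the endoplasmic reticulum, and Insig1 is itself an SREBP target. Insig2 had 448 and 626 counts in the 2 dura mater libraries, where the brain libraries had 1178 and 1181. It was the steadiest of the lower members, at 85.3 ± 5.66 CPM against 35.9 ± 3.49 CPM (SD, n = 2 each), and the groups lay farther apart than their replicates. The test, which shares its spread across genes, put the log2 fold change at -1.25 (SE 1.09, edgeR adjusted p = 0.932), and between -1.37 and -1.24 with 1 library left out. Insig1 reached 1 and 220 counts in the brain replicates, while the dura mater replicates gave 1 and 260, so that 1 library of each tissue held all but 1 count. Its log2 fold change was -0.06 (SE 3.42, edgeR adjusted p = 1.00), and its sign turned with upper-quartile scaling, with library size alone and without brain replicate 2 or dura mater replicate 1. Scap, which encodes the escort protein, was counted 4830 and 586 times in the brain replicates and 984 and 1260 times in those of the dura mater. Its fitted change, -1.32 on the log2 scale (SE 0.99, edgeR adjusted p = 0.850), rested on brain replicate 1, since brain replicate 2 had the lowest count of the 4 libraries.

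Of the 13 tested synthesis enzymes, edgeR called 0, as did DESeq2 and limma-voom, and 0 reached an unadjusted p under 0.05. Their log2 fold changes ran from -3.12 to 2.03 with a median of -0.51, and 9 lay below 0 and 4 above. Over all 19 enzymes without the filter the median was -0.27. Over the same 13 enzymes the median was -1.04 without brain replicate 1, 0.97 without brain replicate 2, -0.46 without dura mater replicate 1 and -2.44 without dura mater replicate 2, so its sign turned without brain replicate 2. The first 3 of these fits tested 18 enzymes, since more genes passed the filter, and over those 18 the medians were 0.29, 3.60 and 0.24.

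The 8 mevalonate and isoprenoid enzymes convert acetyl-CoA to farnesyl and geranylgeranyl diphosphate. Of these, 7 were tested, with a median log2 fold change of -0.22. Acat2, which encodes the thiolase of the first step, was the one counted above 64 in every library, with brain counts of 570 and 170 and dura mater counts of 314 and 672. Hmgcs1, which encodes HMG-CoA synthase, had 553 and 377 counts in the 2 dura mater libraries, where the brain libraries had 2 and 579. Mvd, which encodes the decarboxylase that forms isopentenyl diphosphate, reached 1 and 697 counts in the brain replicates, while the dura mater replicates gave 474 and 26. Both genes were near 0 in brain replicate 1 and high in brain replicate 2, and Ggps1, which encodes geranylgeranyl diphosphate synthase, did the same with brain counts of 0 and 296 and dura mater counts of 262 and 111. The kinase genes Mvk and Pmvk were likewise low in both first replicates. Mvk had 0, 194, 0 and 205 counts and Pmvk had 1, 229, 3 and 57, in brain replicates 1 and 2 and dura mater replicates 1 and 2. Fdps, which encodes farnesyl diphosphate synthase, had 275, 4, 4 and 72 counts, and 26.7% of its exon length is shared with Gm43738 on the same strand. Idi1, the isomerase gene, had 54 counts in dura mater replicate 2 and 0 in the other 3 libraries.

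Of the 11 squalene and sterol ring enzymes, 6 were tested, with a median log2 fold change of -0.93. Cyp51, which encodes lanosterol demethylase, was counted 1567 and 472 times in the brain replicates and 100 and 145 times in those of the dura mater. Dura mater replicates were close together and below both brain libraries, which themselves differed widely. The level was 71.9 ± 51.2 CPM for the brain and 8.17 ± 1.01 CPM for the dura mater (mean ± SD, n = 2 each). The log2 fold change was -3.12 (SE 1.69, edgeR unadjusted p = 0.112, adjusted p = 0.597), the lowest of the enzymes, and the brain over dura mater ratio of summed counts was 8.93 with an exact 95% counting interval of 7.81 to 10.2. With 1 library left out the log2 fold change ran from -3.77 to -2.16. Cyp51 lies at chr5:4081145-4104746 on the minus strand and shares 3.76% of its exon length with Akap9 on the other strand. Msmo1, which encodes the sterol C4-methyl oxidase that acts after CYP51, had 771 and 256 counts in the 2 dura mater libraries, where the brain libraries had 1798 and 982. The groups did not overlap, at 99.1 ± 35.2 CPM against 36.6 ± 29.6 CPM, and the log2 fold change was -1.43 (SE 1.14, edgeR adjusted p = 0.888), or -2.79 to -0.80 with 1 library left out.

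Fdft1, which encodes squalene synthase, was the only tested enzyme with both dura mater libraries above both brain libraries. It reached 438 and 1 counts in the brain replicates, while the dura mater replicates gave 692 and 1192. Levels were 15.1 ± 21.3 CPM and 62.3 ± 15.1 CPM, and the brain spread was larger than the brain mean. The log2 fold change was 2.03 (SE 2.38, edgeR adjusted p = 1.00), with 0.97 (adjusted p = 0.808) without brain replicate 2. Without brain replicate 1 it was 8.15 (edgeR adjusted p = 0.0255), but the brain is then a lone library with 1 count. Fdft1 shares 18.3% of its exon length with Ctsb, a cathepsin gene on the other strand, and the use of strand in counting is not given in the sources used here. Reads from the part shared by the 2 genes can be told apart only with strand. Whether that part lies where the sequenced 3′ ends fall was not examined, so the Fdft1 values are uncertain. Exons of 9 members in all overlap a gene on the other strand, among them Scap (13.2% of its exon length) and Hmgcs1 (12.1%).

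Ebp, which encodes the sterol isomerase, was counted in all libraries, with brain counts of 579 and 2645 and dura mater counts of 299 and 1573, so the replicates of a tissue differed more than the tissues. Nsdhl, which encodes a C4-decarboxylating dehydrogenase, was counted 186 and 23 times in the brain replicates and 0 and 131 times in those of the dura mater. Dhcr7, which encodes the reductase that forms cholesterol from 7-dehydrocholesterol, had 1 and 231 counts in the 2 dura mater libraries, where the brain libraries had 0 and 243. Sqle, which encodes squalene epoxidase, a slow step of the pathway, had at most 2 counts in any library. Lss, which encodes the lanosterol-forming cyclase, had 172 counts in dura mater replicate 2 and 0 elsewhere. Tm7sf2, Hsd17b7 and Sc5d, which act on the ring or its side groups, had 104, 152 and 92 counts in dura mater replicate 2 and at most 2 counts in each of the other libraries. For Tm7sf2, 12.1% of the exon length is shared with Vps51 on the same strand.

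Genes of intracellular sterol transport gave 3 tested members and no call. Npc1, which encodes the membrane protein that exports cholesterol from lysosomes, reached 758 and 1304 counts in the brain replicates, while the dura mater replicates gave 245 and 662. The groups did not overlap, at 75.4 ± 32.7 CPM against 29.4 ± 15.8 CPM, and the log2 fold change was -1.35 (SE 1.30, edgeR adjusted p = 0.962), or -2.06 to -0.91 with 1 library left out. Its soluble partner Npc2 was counted 2316 and 8779 times in the brain replicates and 7848 and 9113 times in those of the dura mater, with a log2 fold change of 0.47. Stard4, which encodes a cytosolic sterol carrier, had 470 and 2 counts in the 2 dura mater libraries, where the brain libraries had 0 and 1662, so the replicates of each tissue went opposite ways. Soat1, which encodes the enzyme that esterifies cholesterol for storage, had 1, 5, 3 and 22 counts and was not tested. The 14 tested members that neither separated the tissues nor belong to the paralogue pairs had log2 fold changes between -2.14 and 0.55, SEs between 0.440 and 3.83 and edgeR adjusted p-values of 0.850 or more.

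The replicates of a tissue often disagreed on these genes. A gene was counted as split where it had at least 64 counts in 1 replicate and at most 7 in the other. In brain ECs, 10 of the 24 members with at least 64 counts in either replicate were split (41.7%), against 31.3% of all symbols with such counts. Brain replicate 2 was the high one for Hmgcs1, Mvk, Pmvk, Mvd, Ggps1, Dhcr7, Insig1 and Stard4, and brain replicate 1 for Fdps and Fdft1. Over all symbols split in brain ECs, replicate 2 was the high one for 50.2%. In dura mater ECs, 14 of the 30 members with such counts were split (46.7%), against 30.7% of all symbols with such counts. Replicate 2 was the high one for all of these members but Stard4. Replicate 2 was the high one for 87.2% of all symbols split in dura mater ECs. Among the enzymes, 8 of 13 were split in brain ECs and 8 of 16 in dura mater ECs. Of the 31 members with at least 64 counts in any library, 6 had them in dura mater replicate 2 alone. These 6, with at most 7 counts in every other library, were Lss, Tm7sf2, Hsd17b7, Sc5d, Vldlr and Nr1h3. Among all symbols with at least 64 counts in any library the share was 10.9%.

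**Figure D4:**
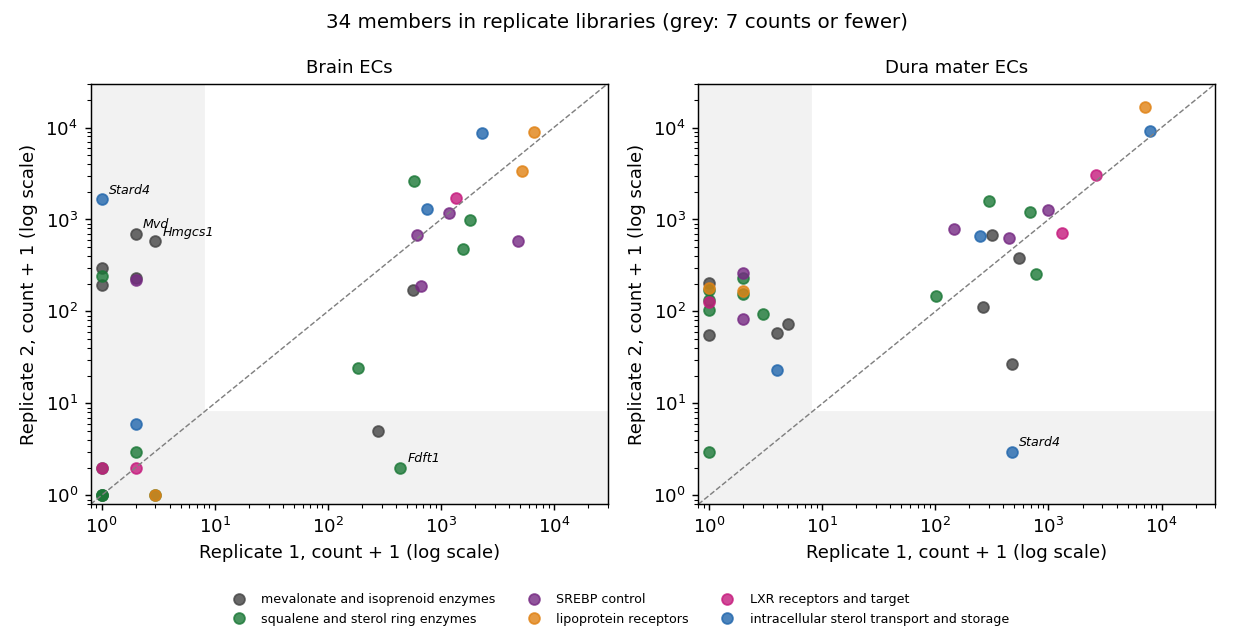
Count plus 1 (log scales) of each of the 34 members in replicate 1 against replicate 2, for brain ECs and dura mater ECs, coloured by role. The grey bands hold counts of 7 or fewer, and the split members lie in them, 10 for the brain and 14 for the dura mater, while Scarb1, Insig2 and Nr1h2 stay clear of the bands in both tissues.

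In brain ECs the library with fewer high members, replicate 1, had the larger total of the 2, 14468642 against 13812738 counts, and in dura mater ECs it had the smaller, 13518973 against 16096203. The number of members with at least 64 counts was 16 and 21 for the brain, against 17 and 28 for the dura mater. All 34 members had a count in dura mater replicate 2, against 25, 29 and 26 in brain replicates 1 and 2 and dura mater replicate 1. Dura mater replicate 2 also had the most symbols with a count, 11803.

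Several marker lists moved with the tissue beside these results. The summed level of 4 erythroid genes was 17611 and 25437 CPM in brain ECs and 1496 and 752 CPM in dura mater ECs, with 4 of 4 genes lower and 3 called lower. Genes of the response to tissue dissociation stood at 4537 and 5003 CPM against 24268 and 28102 CPM, with 10 of 10 higher and 5 called. Fibroblast genes summed to 7.38 and 50.9 CPM in brain ECs and 369.8 and 353.9 CPM in dura mater ECs, with 4 of 7 higher, none called, and Lum and Pdgfra at 7 counts or fewer in every library. Their part in the values of Mylip, Lrp8, Srebf2 and Cyp51 was not tested.

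Glia make much of the cholesterol of the brain, so their markers were read as well. Oligodendrocyte genes summed to 102 and 5.29 CPM in brain ECs and 139 and 58.4 CPM in dura mater ECs, with Mog, Mag, Mobp and Sox10 at 7 counts or fewer in every library and 3 of 8 higher in both dura mater libraries. Astrocyte genes summed to 82.2 and 226 CPM against 636 and 209 CPM, with Aqp4 and Aldh1l1 at 7 or fewer and 3 of 8 higher in both dura mater libraries. These 3 were Slc1a3 (1 and 1 counts against 915 and 74), Slc1a2 (1 and 0 against 863 and 87) and Gja1 (743 and 103 against 3641 and 2460). Neuronal genes stood at 0.966 and 0.227 CPM against 21.0 and 6.06 CPM, with Rbfox3, Syp and Nefl at 7 or fewer. Mural genes summed to 621 and 1075 CPM against 1134 and 679 CPM, with 4 of 9 higher in both dura mater libraries, among them Kcnj8 (0 and 0 counts against 468 and 410). No gene of the glial, neuronal or mural lists was called by edgeR, and the part of these cells in the members' values was not tested. Macrophage and microglia genes summed to 51.4 and 50.3 against 44.4 and 39.8 CPM, and other leukocyte genes to 0.897 and 3.17 against 2.76 and 2.21 CPM. Of the 9 macrophage and microglia genes, 1 was higher in both dura mater libraries (Cd68, 4 and 3 counts against 550 and 441) and 2 were lower. C1qa and C1qb came mostly from brain replicate 1 (436 and 289 counts) and Csf1r mostly from brain replicate 2 (646). In bulk samples, fewer cells of a type and less RNA per cell cannot be told apart.

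Beyond the 34 genes, 49 others of the same and neighbouring pathways were read from 5 lists. Of these, 48 were found by symbol, 31 were tested and 0 were called by edgeR, while 3 (Fasn and Me1 higher, Fntb lower) reached an unadjusted p under 0.05, near the 7.04% and 2.97% of all genes tested. DESeq2 called these 3, near its 9.02% over all genes, and limma-voom called 0. In the list of SREBP cleavage and sterol-regulated degradation, 5 of 7 genes were tested. Mbtps1, which encodes the site-1 protease that makes the first cut in SREBPs, reached 4595 and 3533 counts in the brain replicates, while the dura mater replicates gave 2581 and 3188, and the log2 fold change was -0.59 (SE 0.44, edgeR adjusted p = 0.853). Rnf139, which encodes a sterol-sensing ubiquitin ligase, was counted 82 and 1 times in the brain replicates and 467 and 415 times in those of the dura mater (log2 fold change 3.33, SE 2.94, edgeR adjusted p = 0.938).

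Among genes of oxysterol formation and other sterol enzymes, 4 were tested. Ch25h, which encodes cholesterol 25-hydroxylase, the source of an oxysterol that can hold back SREBP cleavage, had 939 and 1750 counts in the 2 dura mater libraries, where the brain libraries had 259 and 6. Both dura mater libraries were above both brain libraries, and the log2 fold change was 3.25 (SE 1.94, edgeR adjusted p = 0.676). Cyp39a1, which encodes an oxysterol hydroxylase, reached 876 and 232 counts in the brain replicates, while the dura mater replicates gave 0 and 213 (log2 fold change -2.55, SE 3.05, edgeR adjusted p = 1.00). Among 12 sterol carriers and efflux genes, 8 were tested. Osbpl1a, which encodes an oxysterol-binding protein, was counted 1263 and 589 times in the brain replicates and 156 and 112 times in those of the dura mater, and the log2 fold change was -2.81 (SE 1.71, edgeR adjusted p = 0.689). Osbp, which encodes the founding member of that family, had 3 and 36 counts in the 2 dura mater libraries, where the brain libraries had 1050 and 0 (log2 fold change -4.75, SE 3.77, edgeR adjusted p = 0.887). Abcg1, an LXR target that encodes a cholesterol exporter, was chosen after its values were seen. It reached 660 and 0 counts in the brain replicates, while the dura mater replicates gave 258 and 1384, so its groups overlapped where those of Mylip did not, and the difference between the 2 genes was not tested.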

How the data were processed

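The values deposited by the authors are unscaled counts, whole numbers for each gene symbol, in a separate table for each library. The submitters' processing notes list Bowtie2, edgeR and the build mm10, while the methods name TopHat and cufflinks. How counts were made, the annotation, and the use of strand or molecular identifiers are not given in the sources used here.

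Groups and replicate numbers came from the sample titles. The quasi-likelihood test of edgeR 4.0.16 (R 4.3.3) was fitted to all 4 libraries as deposited counts, with TMM scaling, filterByExpr (minimum count 10, minimum total 15), tissue as the only term, a prior count of 2 and Benjamini-Hochberg adjustment over all genes tested. It stands in for cufflinks, which needs alignments not used here. Called means an adjusted p under 0.05. CPM values are deposited counts scaled to the TMM library size. Each SE was derived from the F statistic, as the absolute log2 fold change over its root. Ratios of summed counts have exact conditional binomial intervals at 95%. Intervals cover counting error only. Scripts were tested on simulated data.

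The members and gene lists were chosen with earlier results of these data known. All members were accounted for by role. Full statistics went to members past an adjusted or unadjusted p of 0.05, members whose groups did not overlap with at least 10 CPM in the higher tissue, and the paralogue pairs Insig1 and Insig2, Srebf1 and Srebf2, Nr1h2 and Nr1h3, and Vldlr and Lrp8. From each related list at most 6 called genes, or else the 2 with the smallest p, were named. Alternatives were DESeq2 1.42.0, voom from limma 3.58.1, a newer edgeR dispersion estimate, RLE, upper-quartile and library-size scaling, other filters, a prior count of 0.5, a replicate block and each library left out in turn. Gene positions came from GENCODE M21 (GRCm38), whose build is that of mm10, and promoters from RefSeq (GRCm38.p6).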

Additional observations from a re-analysis of the deposited data

How the results depend on the processing

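The 2 libraries of a tissue differed widely, and calls changed with the tool, the dispersion estimate, the filter and the libraries kept. The count of called members was 1 (Mylip) with RLE, upper-quartile or library-size scaling and with a prior count of 0.5. It was 2 (Lrp8 and Mylip) with DESeq2, the newer edgeR dispersion estimate and no filter on low counts, where calls over all genes rose from 57 to 810, 305 and 326. It was 0 with limma-voom, where 80 genes were called in all and Mylip had an adjusted p of 0.0699. It was also 0 with at least 10 counts required in every library, where 11 members were tested and neither Mylip nor Lrp8 was among them. Leaving out 1 library gave between 1 and 4 called members. These were Lrp8 alone without dura mater replicate 1 (80 calls over all genes), Lrp8 and Mylip without dura mater replicate 2 (97), these 2 and Fdft1 without brain replicate 1 (740), and these 2 with Scap and Npc2 without brain replicate 2 (701). A lone library is then assumed to vary like the other tissue.

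Under the replicate block, 2 members were called, with Lrp8 at a log2 fold change of -7.42 and an edgeR adjusted p of 0.00346, and 224 genes were called in all against 57 without it. The deviations of libraries of the same number had a correlation of -0.0208 over 9347 genes. This is a single value from 2 libraries per tissue, so it cannot decide whether such libraries share mice or a batch. The labels give only the number.

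The count of called synthesis enzymes was 0 throughout, except that leaving out 1 library gave 0 to 1. Their median log2 fold change over 13 enzymes was -0.51 by edgeR with tissue as the only term. It was -0.09 with limma-voom and -0.12 with the replicate block, a change within the spread between replicates, 0.58. It moved beyond that spread, to -1.16, over the 4 enzymes tested with at least 10 counts in every library. With 1 library left out it lay between -2.44 and 3.60, and the enzymes tested changed from 13 to 18 in 3 of the 4 fits. Over the same 13 enzymes with 1 library left out, a comparison chosen after seeing the data, the median ran from -2.44 to 0.97. The difference in the members' share of counts kept within the spread between replicates in every setting. Of 149 values of the 11 members followed, 141 kept their direction. The 8 that turned belong to Insig1 (0.16 with upper-quartile scaling, 0.038 with library size alone, -5.28 to 5.24 with 1 library left out) and Srebf1 (0.095 with upper-quartile scaling, 0.030 with at least 10 counts in every library, -1.50 to 0.95 with 1 library left out). Mylip kept a log2 fold change of 9.70 to 11.29 and was called in 11 of 13 settings (adjusted p 1.1e-12 to 0.0743). The cause of these changes was not tested.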

Other observations

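Among the 49 related genes, 3 had an unadjusted p under 0.05 by edgeR, 1 lower and 2 higher in dura mater ECs. Of the 31 tested this is near the share of all genes tested, 2.97% lower and 7.04% higher. Fntb, which encodes the β subunit of protein farnesyltransferase, reached 1013 and 907 counts in the brain replicates, while the dura mater replicates gave 0 and 0, at least 340-fold lower against a floor of 3 counts per library. Its edgeR unadjusted p was 0.00667 and its adjusted p 0.258, so it was not called by edgeR, while DESeq2 called it. Dhdds, which encodes a subunit of the dolichol-forming prenyltransferase, was counted 844 and 1985 times in the brain replicates and 133 and 326 times in those of the dura mater (log2 fold change -2.79, SE 1.26, edgeR adjusted p = 0.480).

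Of 12 genes of fatty acid synthesis and desaturation, 8 were tested, and edgeR called 0 of them while DESeq2 called Fasn and Me1. Fasn, which encodes fatty acid synthase, had 708 and 513 counts in the 2 dura mater libraries, where the brain libraries had 2 and 7 (log2 fold change 6.48, SE 2.68, edgeR adjusted p = 0.466). Me1, which encodes a malic enzyme that supplies NADPH, reached 2 and 1 counts in the brain replicates, while the dura mater replicates gave 696 and 327 (log2 fold change 7.20, SE 2.79, edgeR adjusted p = 0.466). Both genes had the 2 dura mater libraries above the 2 brain libraries, as did 26.2% of all genes tested. Scd1 and Elovl5 of the same list did so too, and its other tested genes overlapped. Any relation to Srebf1, whose replicates differed widely in each tissue, was not tested.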
